A study of Mus musculus with 8 samples.

Results

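Matrix metalloproteinases (MMPs) and their tissue inhibitors (TIMPs) were read in single cells of mouse dorsal skin. The members were the 9 genes Mmp2, Mmp3, Mmp9, Mmp14, Mmp19, Mmp23, Timp1, Timp2 and Timp3, taken by symbol from the 31053 genes in the files, and each symbol matched 1 gene. Female BALB/c mice of 14 to 16 weeks received subcutaneous injections of PBMCsec, the secretome of irradiated human peripheral blood mononuclear cells, or of vehicle, and 4 libraries were made per condition with a 3′ droplet kit that counts unique molecular identifiers (UMIs). The labels give no wounding, schedule or composition of the vehicle, and no genetic alteration of the mice. They call the libraries separate samples without saying that each came from its own mouse, so p-values measure the spread between these libraries.

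MMPs are zinc-dependent proteases that cut collagens, proteoglycans and other proteins of the extracellular matrix, and most of them are made as inactive proenzymes. TIMPs bind the active site of MMPs and block it. In skin, this balance is known for matrix turnover in the dermis, for the passage of leukocytes and for tissue repair. RNA counts do not measure the activation of the proenzymes or the binding of TIMPs.

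After limits on detected genes, UMIs and mitochondrial share, 6150 of 26231 barcodes remained. Of all barcodes, 16900 exceeded the limit of 5% mitochondrial UMIs, and the other barcodes removed lay outside the limits on genes or UMIs. A library held 18578561 to 37880651 UMIs with PBMCsec and 14753926 to 33333619 with vehicle, and the vehicle libraries 1 and 2 kept the fewest cells, 151 and 208. Pairs of libraries shared at most 2 kept cell barcodes. Clustering without the members gave 35 clusters, of which 33 were placed in 7 cell classes by marker genes. There were 1609 fibroblasts (FBs), 2617 keratinocytes and hair follicle cells (KCs), 838 lymphoid cells, 512 macrophages and dendritic cells (DCs), 121 neutrophils, 84 endothelial cells (ECs) and 39 smooth muscle cells and pericytes (SMCs/PCs). FBs contributed 27 to 550 cells per library. Levels are counts per 1e+06 UMIs of the class in a library (CPM), from libraries with at least 10 cells of the class.

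The members lie on 8 chromosomes. In the mm10 build, Mmp2 spans chr8:92827291-92853420, Mmp3 chr9:7445822-7455975, Mmp9 chr2:164940780-164955850, Mmp14 chr14:54431612-54445364 and Mmp23 chr4:155650655-155653384. Mmp19 (chr10:128790910-128800824) overlaps Tmem198b and Gm47093 on the opposite strand. Timp1 (chrX:20870166-20874735) and Timp3 (chr10:86300372-86349506) overlap Syn1 and Syn3 on the opposite strand, and Timp2 (chr11:118301069-118355740) overlaps Cep295nl on its own strand. In the kept cells, Syn1 had 49 UMIs beside 1442 of Timp1, Syn3 209 beside 25699 of Timp3, and Cep295nl 143 beside 37907 of Timp2. Tmem198b had 538 UMIs beside 1143 of Mmp19. Sharing of reads between overlapping genes was not tested.

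RefSeq promoters (build GRCm38.p6, 250 bases before to 50 after a gene's start) were found for 6 members, and not for Mmp2, Mmp9 or Mmp19. Of these, the promoters of Mmp3, Mmp14 and Timp3 are shown as examples of genes with different spreads over cell classes: Mmp3 in FBs, Mmp14 in FBs with lower levels in every class but neutrophils, and Timp3 across ECs, SMCs/PCs, FBs and KCs. Capitals mark the motifs searched on both strands: AP-1 (TGACTCA or TGAGTCA), the TATA box (TATAAA or TTTATA) and the GC box (GGGCGG or CCGCCC).
Mmp3 promoter, chr9:7445572-7445871, plus strand: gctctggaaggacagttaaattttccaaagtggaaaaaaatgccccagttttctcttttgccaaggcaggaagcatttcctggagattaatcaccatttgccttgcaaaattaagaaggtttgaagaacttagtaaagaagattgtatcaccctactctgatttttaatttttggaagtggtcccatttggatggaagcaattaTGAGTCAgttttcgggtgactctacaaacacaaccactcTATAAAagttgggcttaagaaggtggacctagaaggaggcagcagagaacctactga
Mmp14 promoter, chr14:54431348-54431647, plus strand: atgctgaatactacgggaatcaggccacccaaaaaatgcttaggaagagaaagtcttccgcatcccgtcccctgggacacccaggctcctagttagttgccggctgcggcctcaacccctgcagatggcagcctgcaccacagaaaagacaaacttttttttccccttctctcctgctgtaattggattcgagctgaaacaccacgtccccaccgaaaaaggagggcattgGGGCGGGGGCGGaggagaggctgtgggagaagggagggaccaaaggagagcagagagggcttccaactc
Timp3 promoter, chr10:86300162-86300461, plus strand: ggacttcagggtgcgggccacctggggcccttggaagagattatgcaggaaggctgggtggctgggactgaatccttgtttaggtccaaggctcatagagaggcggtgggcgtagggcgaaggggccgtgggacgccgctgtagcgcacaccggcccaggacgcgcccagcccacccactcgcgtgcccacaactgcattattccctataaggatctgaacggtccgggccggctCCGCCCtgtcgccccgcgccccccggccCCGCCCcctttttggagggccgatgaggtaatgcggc
The Mmp3 window held an AP-1 match that begins 46 bases before the gene's start and a TATA match that begins 7 bases before it. The windows of Mmp14 and Timp3 held 2 GC boxes each and neither of the other motifs. GC content was 40.0% for Mmp3, 56.0% for Mmp14 and 67.0% for Timp3, beside a median of 52.7% over all promoters. Of 32851 promoters, 5.20% held the AP-1 motif, 13.6% the TATA motif and 35.7% the GC box. Timp1 and Timp2 had 1 GC box each, and of the 2 Mmp23 windows 1 had 2 GC boxes and the other no match.

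FBs held most of the UMIs of 7 of the 9 members. FBs had 27.2% of all UMIs but 98.4% of those of Mmp23, 94.3% of Mmp3, 93.2% of Mmp2, 86.2% of Timp2, 82.0% of Mmp14, 74.8% of Timp1 and 74.5% of Mmp19. Mmp9 was apart, with 69.9% of its UMIs in macrophages and DCs and 24.8% in neutrophils. Timp3 was split between KCs (41.4%, beside 51.2% of all UMIs) and FBs (40.5%). Cells of the unnamed clusters held 9.93% of it, beside 5.03% of all UMIs.

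**Figure D1:**
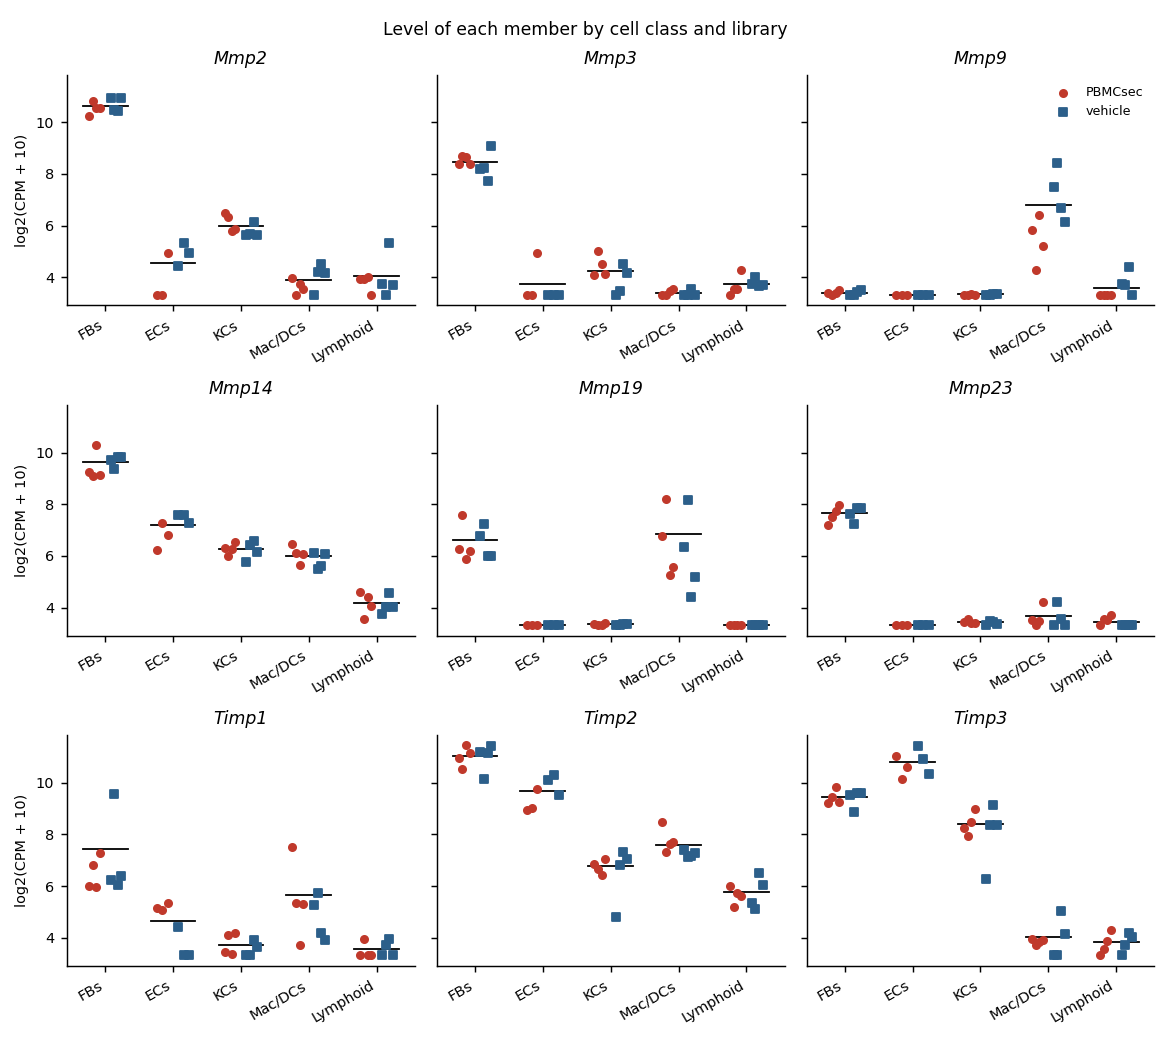
Level of each member, as log2(CPM + 10), in 5 cell classes. Each point is a library with at least 10 cells of the class (red circles PBMCsec, blue squares vehicle), and the line is the mean over libraries. Mmp2, Mmp3, Mmp14, Mmp23 and Timp2 stand highest in FBs, Mmp9 in macrophages and DCs, Timp3 in ECs, and red and blue points overlap for every member in FBs, KCs, macrophages and DCs, and lymphoid cells. In ECs the Timp1 points do not overlap (24.0 to 31.0 CPM with PBMCsec and 0 to 11.5 with vehicle), and all 84 ECs had 11 Timp1 UMIs. Each of these points rests on at most 3 UMIs. Treatment was not tested in ECs, and the share of all genes without overlap there was not computed, so no difference is read from this.

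Among the gelatinases, Mmp2, which cuts denatured collagen and basement membrane collagen, had a mean of 1580.2 CPM ± 279 (SD, n = 8 libraries) in FBs, against 53.3 ± 15.5 in KCs, the next class. The difference was 4.67 on the log2(CPM + 10) scale and held in 8 of 8 libraries (exact sign-flip permutation test, two-sided, p = 0.00781, the smallest that 8 libraries can give, adjusted p = 0.0352 over 36 pairs of neighbouring classes). Mmp2 averaged 13.8 CPM in ECs, 6.68 in lymphoid cells and 5.003 in macrophages and DCs, and the last 3 did not differ beyond their spread (exact permutation tests, adjusted p = 0.466 and 0.818). A Mmp2 UMI was found in 93.7% of FBs (exact 95% interval 92.4 to 94.9%), and in 1.79% of lymphoid cells, where its source was not tested. The interval pools the cells of all libraries and leaves out the spread between libraries. Thinned to 1000 UMIs per cell, the shares were 67.5% of 1586 FBs, 4.81% of 2559 KCs and 0.723% of 830 lymphoid cells, leaving out 23, 58 and 8 shallower cells.

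Mmp9, the other gelatinase and a product of leukocytes, was highest in neutrophils, where it averaged 636 CPM ± 414 over the 4 libraries with at least 10 such cells. It reached 344, 295 and 717 CPM in PBMCsec libraries 1, 2 and 4 and 1188 CPM in vehicle library 2, each above the level in macrophages and DCs of the same library. Macrophages and DCs averaged 102 CPM ± 104 (n = 8), above lymphoid cells with 2.17 (8 of 8 libraries, exact permutation p = 0.00781, adjusted p = 0.0352). FBs and KCs averaged 0.560 and 0.106 CPM, and ECs had no Mmp9 UMI, where 3 UMIs would be 5.44 CPM. After thinning, a Mmp9 UMI was left in 35.7% of 115 neutrophils, 5.92% of 507 macrophages and DCs and none of 2559 KCs. The unthinned shares were 42.1% of neutrophils at a median of 1481 UMIs per cell, 17.0% of macrophages and DCs at 7227.5 UMIs, and 0.191% of KCs at 9965 UMIs.

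Mmp3, the stromelysin that cuts proteoglycans and activates other proenzymes, averaged 346 CPM ± 99.6 in FBs and 9.01 ± 7.27 in KCs (8 of 8 libraries higher, exact permutation p = 0.00781, adjusted p = 0.0352). The order below KCs was not resolved: KCs against lymphoid cells gave an adjusted p of 0.230 (exact permutation test, n = 8). Only part of the FBs carried it. A Mmp3 UMI was seen in 48.2% of FBs, or 21% after thinning, while 0.586% of macrophages and DCs had one.

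Mmp14 encodes the membrane-anchored protease that activates proMMP2 at the cell surface. It averaged 778 CPM ± 244 in FBs, 136 ± 45.7 in ECs, 67.4 ± 14.2 in KCs, 53.3 ± 14.4 in macrophages and DCs and 7.86 ± 4.60 in lymphoid cells. The step from FBs to ECs was seen in 6 of 6 libraries (exact permutation p = 0.0313, the smallest that 6 libraries allow, adjusted p = 0.0662). From ECs to KCs it was seen in 5 of 6 libraries (adjusted p = 0.118, exact permutation test). Even steps that held in 6 of 6 libraries had an adjusted p of 0.0662, so these tests could not decide a step to or from ECs. The step from KCs to macrophages and DCs was within the spread (adjusted p = 0.232, exact permutation test). Macrophages and DCs stood above lymphoid cells in 8 of 8 libraries (adjusted p = 0.0352, exact permutation test). No Mmp14 UMI was found in 121 neutrophils, where 3 UMIs would be 14.4 CPM.

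Mmp19, a secreted MMP, averaged 104 CPM ± 112 in macrophages and DCs and 88.5 ± 49.2 in FBs, without a difference beyond the spread (mean difference -0.25 on the log2(CPM + 10) scale, higher in macrophages and DCs in 3 of 8 libraries, exact permutation adjusted p = 0.517). FBs exceeded KCs, with 0.194 CPM, in 8 of 8 libraries (adjusted p = 0.0352, exact permutation test), and no UMI of Mmp19 was seen in lymphoid cells or ECs. Mmp23, which is membrane-bound until it is cleaved, averaged 189 CPM ± 37.7 in FBs and 2.67 ± 3.74 in the next class, macrophages and DCs (8 of 8 libraries, exact permutation p = 0.00781, adjusted p = 0.0352). Its FB level ranged from 135 to 238 CPM over the 8 libraries.

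Among the TIMPs, Timp2, which inhibits MMPs and takes part in proMMP2 activation by Mmp14, was found in every class: 2112 CPM ± 572 in FBs, 813 ± 305 in ECs (n = 6), 182 ± 72.3 in macrophages and DCs, 98.2 ± 39.2 in KCs and 44.5 ± 19.2 in lymphoid cells. Each step held in 6 of 6 or 7 of 8 libraries, with adjusted p of 0.0563 to 0.0662 (exact permutation tests). After thinning, a Timp2 UMI was left in 84.3% of FBs, 46.3% of 80 ECs, 16.0% of macrophages and DCs, 10.6% of KCs and 3.37% of lymphoid cells.

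Of the cell classes, those of vessels had the highest levels of Timp3, the inhibitor that binds to the matrix. Within KCs, a hair follicle cluster described below had a level like that of ECs. Timp3 averaged 1778 CPM ± 589 in ECs and was higher there than in FBs, with 689 ± 135, in 6 of 6 libraries (exact permutation p = 0.0313, the smallest possible, adjusted p = 0.0662). The 1 library with 10 or more SMCs/PCs had 2753 CPM, and pooled over all libraries the 39 SMCs/PCs had 1048 Timp3 UMIs. Of these UMIs, 509 came from the 8 SMCs/PCs of PBMCsec library 1. FBs exceeded KCs, with 330 ± 149 CPM, and KCs exceeded macrophages and DCs, with 6.09 ± 7.29, in 8 of 8 libraries (adjusted p = 0.0352 for each, exact permutation tests). The low level in macrophages and DCs depends on how cells are placed. It was 60.9 CPM with cells placed one by one by marker genes. Thinned shares were 71.3% of ECs, 43.8% of FBs, 22.3% of KCs and 0.394% of macrophages and DCs.

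Timp1, the soluble inhibitor that inflammatory signals are known to induce, was the lowest of the TIMPs in UMIs, with 1442 in all kept cells. It averaged 161 CPM ± 235 in FBs, 40.4 ± 56.1 in macrophages and DCs and 15.4 ± 13.5 in ECs. FBs stood above macrophages and DCs in 7 of 8 libraries, which did not pass the adjusted threshold (exact permutation p = 0.0313, adjusted p = 0.0662). In FBs and in macrophages and DCs the SD exceeded the mean.

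Within FBs, the members were unevenly divided over the 8 clusters, of which each was described by its leading genes. The clusters come from 2000 variable genes, with the members and their partners left out, and the values below are a description. Mmp3 was highest in cluster 12, led by Col1a2, Dcn, Gpx3 and Lum, with 825 CPM, and reached 101 CPM in cluster 9, led by Pi16 and Clec3b. Against cluster 0, described below, cluster 12 was higher in 5 of 6 libraries, and the ranges overlapped (509 to 1315 against 147 to 628 CPM). In the 5 libraries with 10 cells in each of clusters 12 and 9, cluster 12 ranged from 571 to 1315 CPM and cluster 9 from 27.0 to 172, with no overlap. Timp3 ran the other way, with 1368 CPM in cluster 9 and 524 in cluster 12, and was higher in cluster 9 in 5 of 5 libraries (989 to 1610 against 355 to 566 CPM).

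Cluster 15, led by Ednrb, Acta2, Tagln and Wif1, had the lowest level of several members. Its Mmp2 was 384 CPM, against 1067 to 1900 in the other 7 FB clusters, and its Timp3 was 142 CPM, against 496 to 1368. In 5 of 5 libraries Mmp2 was lower there than in cluster 0, led by Clec3b, Dcn and Fn1 (243 to 443 against 1400.3 to 2471 CPM), and so was Timp2 (464 to 1177 against 2217 to 3227 CPM). Mmp14 was the most even member over FB clusters, at 727 to 1009 CPM in all 8, cluster 15 included. Mmp23 ranged from 103 CPM in cluster 15 to 256 CPM in cluster 9.

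**Figure D2:**
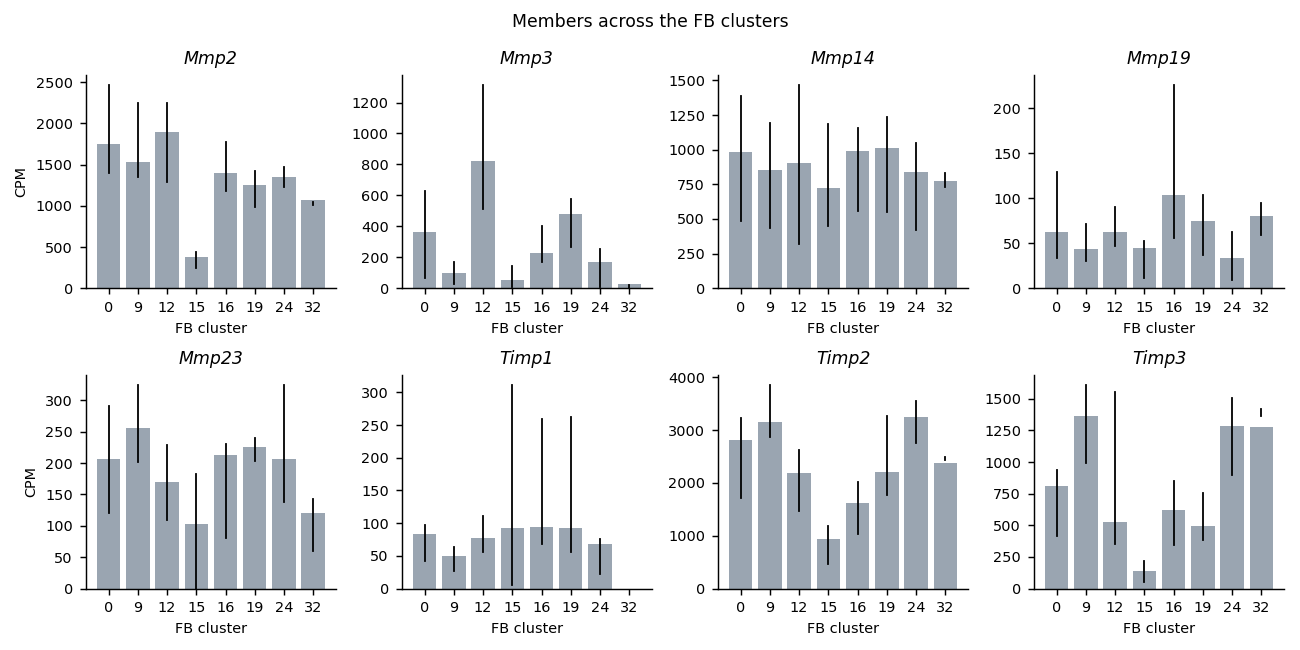
CPM of 8 members in the 8 FB clusters. Bars pool all libraries and black lines run from the lowest to the highest library, for clusters with at least 10 cells in 2 or more libraries. Mmp3 peaks in cluster 12 at 825 CPM, Mmp2 falls to 384 CPM in cluster 15, and Mmp14 stays between 727 and 1009 CPM. In cluster 32, which had few UMIs per cell, the bar can lie outside the line because libraries with fewer than 10 cells count only in the bar.

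Among KCs, Timp3 was concentrated in cluster 2, led by Sfrp1, Id4 and Krt17, genes of the hair follicle. It reached 1904 CPM there, with a UMI in 97.5% of cells, while cluster 1 had 137 CPM. In 5 of 5 libraries cluster 2 was higher, at 1008 to 2464 against 11.4 to 344 CPM. Cluster 2 also had the highest Timp2 and Mmp14 of the KC clusters, 377 and 151 CPM. Among macrophages and DCs, Timp2 was highest in cluster 18, led by Lyz2, Cd74, Ccl8 and C1qa, with 523 CPM, and was higher there than in cluster 11, led by Cd74, H2-Aa, Lyz2 and Mgl2, in 6 of 6 libraries (245 to 835 against 36.5 to 167 CPM).

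The genes whose level over the 35 clusters was most like each member, among 9023 genes with at least 50 CPM in any cluster, are given as Pearson's r of log2(CPM + 10). The clusters share libraries and differ in depth, so these are descriptions. Mmp23 had the closest, Cpxm1 (r = 0.99), Dpt (0.98) and En1 (0.98). Mmp2 was most like Entpd2 (0.95), Medag (0.94) and Scara3 (0.94), Mmp3 like Angptl1 (0.92), Mrc2 (0.92) and Fibin (0.91), and Mmp14 like Ehbp1 (0.94), Sh3pxd2b (0.92) and Rbms3 (0.91). Mmp19 was most like Abca9 (0.97), Ank2 (0.88) and Tmem106a (0.88), and Mmp9 like Siglece (0.92), Trim30b (0.88) and Dok3 (0.87). For the TIMPs these were Cd302 (0.88), Tram2 (0.86) and Rrbp1 (0.86) for Timp1, Fam114a1 (0.90), Rbms3 (0.90) and Efemp2 (0.89) for Timp2, and Osmr (0.90), Parva (0.89) and Cdc42bpa (0.89) for Timp3. Among the members themselves, Mmp2 and Mmp23 were most like each other (0.91), and the highest r of Mmp9 with another member was -0.05.

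The comparison of PBMCsec with vehicle asked whether the injected secretome changed these genes within a cell class. edgeR's quasi-likelihood test was run on the UMIs of each gene summed per library, and fold changes are PBMCsec minus vehicle on the log2 scale. Some collagen and keratin genes, named in the processing section, were left out of classes other than their own. In FBs, 0 of 9584 genes tested passed the adjusted threshold (0%, all genes) and 182 (1.9%) had an unadjusted p under 0.05. Of the members, 8 of 9 passed the filter on low counts, and none passed the test, had an unadjusted p under 0.05 or had groups that did not overlap, which 2.09% of all genes tested had. Of these, 5 had a fold change above 0 and 3 below, with a median of 0.05, beside -0.01 over all genes tested. By DESeq2, FBs had 0 calls and 168 genes with an unadjusted p under 0.05.

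Mmp2 in FBs had 1217, 1783, 1483 and 1484 CPM in PBMCsec libraries 1 to 4, and 1947, 1409, 1362 and 1957 CPM in vehicle libraries 1 to 4. The groups overlapped, and the fold change was -0.09 ± 0.21 (SE, edgeR adjusted p = 0.9998). Mmp3 in FBs had 325, 408, 395 and 325 CPM with PBMCsec and 285, 293, 204 and 535 CPM with vehicle. The vehicle libraries held the lowest and the highest value, and the fold change was 0.19 ± 0.29, or 0.010 without vehicle library 3 and 0.57 without vehicle library 4. In vehicle library 2, 37 of the 58 Mmp3 UMIs came from 1 of 27 FBs.

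Mmp14 in FBs had 599, 535, 1250.0 and 550.0 CPM with PBMCsec and 829.03, 651, 906 and 906 CPM with vehicle. PBMCsec library 3 was above all others and the remaining 3 below all vehicle libraries, with a fold change of -0.10 ± 0.28. Mmp19 in FBs had 66.0, 182, 48.3 and 62.1 CPM with PBMCsec and 100.3, 141, 54.4 and 53.2 CPM with vehicle, a fold change of 0.19 ± 0.46. Mmp23 in FBs had 135, 171, 201 and 238 CPM with PBMCsec and 189, 141, 219 and 222 CPM with vehicle, a fold change of 0.01 ± 0.23. The groups of these 3 genes overlapped, and edgeR's adjusted p was 0.9998 for each.

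Timp2 in FBs had 1996, 1475, 2774 and 2272 CPM with PBMCsec and 2294, 1121, 2243 and 2722 CPM with vehicle. Timp3 in FBs had 591, 693, 900.1 and 607 CPM with PBMCsec and 729, 459, 777 and 758 CPM with vehicle. Library 2 was the lowest of the vehicle group for each of them, and both fold changes were 0.10, with an SE of 0.28 for Timp2 and 0.22 for Timp3. The groups overlapped and neither passed the test.

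Timp1 in FBs had 54.3, 103, 52.3 and 145 CPM with PBMCsec and 65.6, 737, 55.8 and 74.3 CPM with vehicle. Vehicle library 2 stood above all other libraries and the other 7 overlapped. The fold change was -1.25 ± 0.78 (edgeR adjusted p = 0.9998), and without vehicle library 2 it was 0.53. In that library, 83 of the 146 Timp1 UMIs (56.8%) came from 1 of 27 FBs, and without this cell the level was 330 CPM, still above the other libraries.

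**Figure D3:**
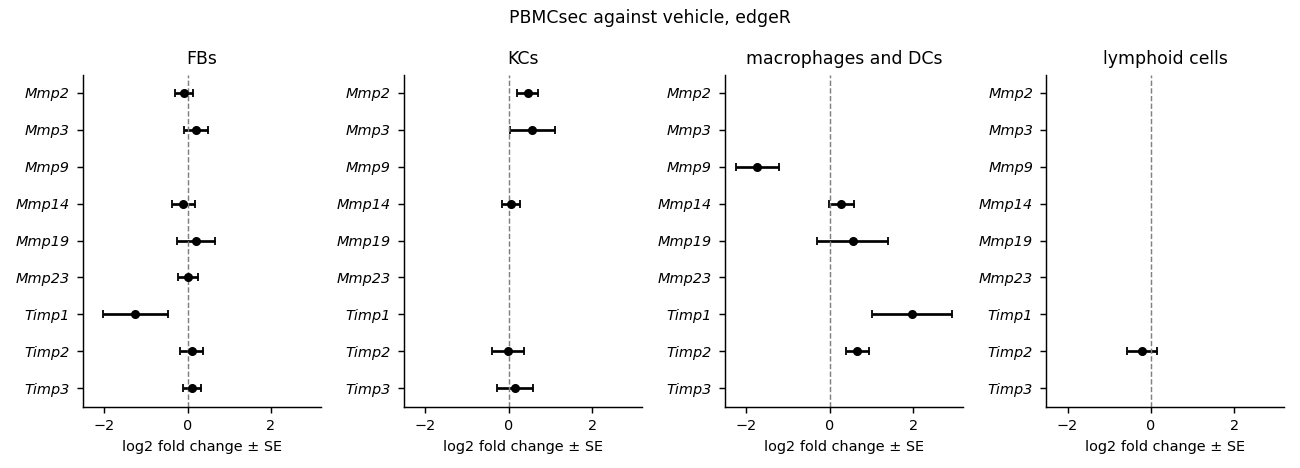
edgeR log2 fold change, PBMCsec minus vehicle, with its SE for the members that passed the filter on low counts in 4 cell classes (8, 5, 5 and 1 genes). The dashed line marks no change. In FBs Timp1 (-1.25) lies farthest from 0, in KCs Mmp3 (0.56) and Mmp2 (0.45), and in macrophages and DCs Timp1 (1.98) and Mmp9 (-1.74).

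In KCs, edgeR called 0 of 10670 genes (0%) and 169 (1.58%) had an unadjusted p under 0.05, while DESeq2 called 1 and had 126. Of the members, 5 passed the filter, 4 with a fold change above 0 and 1 below, and the median was 0.15 beside 0.0046 over all genes. No member had groups without overlap, against 1.36% of all genes. Mmp2 had 80.5, 69.8, 45.3 and 49.0 CPM with PBMCsec and 39.9, 40.7, 61.4 and 39.3 CPM with vehicle. Each PBMCsec library was above 3 of the 4 vehicle libraries, only vehicle library 3 lay among them, and the fold change was 0.45 ± 0.25 (edgeR adjusted p = 0.99995). It was 0.25 without PBMCsec library 1 and -0.04 with libraries 3 and 4 alone. Timp3 had 297, 237, 345 and 492 CPM with PBMCsec and 66.5, 322, 555 and 324 CPM with vehicle, a fold change of 0.15 ± 0.44.

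Timp2 in KCs had 107, 90.8, 76.0 and 122 CPM with PBMCsec and 17.7, 102, 149 and 121 CPM with vehicle, a fold change of -0.01 ± 0.38. Vehicle library 1, with 23 KCs, was the lowest for Timp2, Timp3 and Mmp14. Mmp14 and Mmp3 gave 0.06 ± 0.21 and 0.56 ± 0.54, and Mmp3 had 0 to 12.96 CPM with vehicle and 7.10 to 22.7 with PBMCsec. Markers of FBs summed to 148 to 278 CPM in the KCs of PBMCsec libraries and 66.5 to 373 CPM in those of vehicle libraries, with all 10 detected. The part of these FB markers in the low KC levels of Mmp2 and Mmp3 was not tested.

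In macrophages and DCs, edgeR called 0 of 5583 genes (0%) and 256 (4.59%) had an unadjusted p under 0.05, while DESeq2 called 7 and had 192. Of the members, 5 passed the filter, 4 above 0 and 1 below, with a median of 0.55 beside -0.01 over all genes, and 2 of them had an unadjusted p under 0.05. None had groups without overlap, against 2.56% of all genes. Mmp9 had 46.8, 9.29, 76.0 and 27.5 CPM with PBMCsec and 172, 329, 93.0 and 60.4 CPM with vehicle. All 4 PBMCsec libraries were below the mean of the vehicle group, and only PBMCsec library 3 and vehicle library 4 crossed. The fold change was -1.74 ± 0.52 (edgeR p = 0.00447, adjusted p = 0.757, exact two-sided permutation p = 0.0571 over 70 labellings). It was -2.86 with libraries 1 and 2 alone and -0.56 with libraries 3 and 4 alone. With no filter on low counts, edgeR's adjusted p was 4.4e-05. That fit called 110 of 14784 genes in this class, Timp1 among them, where the main fit called 0.

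The Mmp9 of this class lay in cluster 21, led by Cd74, H2-Aa, H2-Eb1 and Cd207, a marker of Langerhans cells. Pooled over libraries it had 282 CPM there, with a UMI in 66.1% of its cells, and in 5 of 5 libraries it exceeded clusters 11 and 18, which had at most 11.04 and 12.5 CPM. Within cluster 21, Mmp9 had 218, 56.3, 283 and 117 CPM in PBMCsec libraries 1 to 4 and 592, 709, 293 and 216 CPM in vehicle libraries 1 to 4. These groups overlapped, and the libraries held 11, 6, 35 and 15 cells and 6, 4, 33 and 14 cells. Cluster 21 made up 14.5 to 27.6% of macrophages and DCs with PBMCsec and 25.9 to 31.4% with vehicle. These ranges overlapped, and the part of this share in the class level of Mmp9 was not tested. The 43 and 38 Mmp9 UMIs of vehicle libraries 1 and 2 came from 4 cells each.

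Of the 7 defining markers of neutrophils, 6 had a UMI in this class and Retnlg had none. Together they summed to 31.0 to 87.7 CPM with PBMCsec and 19.6 to 76.1 CPM with vehicle. The part of neutrophil RNA in the Mmp9 of this class was not tested. In the neutrophils themselves Mmp9 had 344, 295, 180 and 717 CPM with PBMCsec and 369, 1188, 301 and 765 CPM with vehicle, and 4 of these 8 libraries had fewer than 10 neutrophils, so no test was made.

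**Figure D4:**
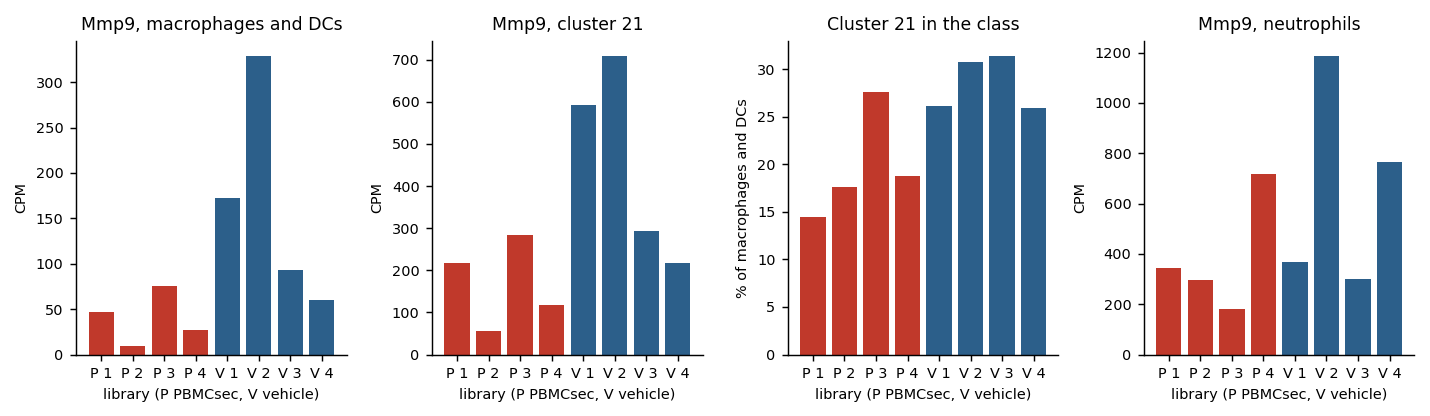
Mmp9 by library (P 1 to 4 PBMCsec, red, and V 1 to 4 vehicle, blue). The panels give its CPM in macrophages and DCs, its CPM in cluster 21, the share of cluster 21 in the class in percent, and its CPM in neutrophils. Vehicle libraries 1 and 2 are highest in the first panel (172 and 329 CPM) and in cluster 21 (592 and 709 CPM), from 6 and 4 cells. Bars of the second and last panels include libraries with fewer than 10 cells.

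Timp2 in macrophages and DCs had 349, 149, 189 and 199 CPM with PBMCsec and 159.9, 129.97, 132 and 144 CPM with vehicle. The 4 PBMCsec libraries were above the vehicle mean and only PBMCsec library 2 lay within the vehicle range. The fold change was 0.66 ± 0.27 (edgeR p = 0.0259, adjusted p = 0.9996, exact two-sided permutation p = 0.0571), and 0.36 without PBMCsec library 1. Mmp14 gave 0.27 ± 0.30, from 40.7 to 78.4 CPM with PBMCsec and 34.7 to 60.0 with vehicle.

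Mmp19 in this class had 97.7, 282, 27.8 and 37.8 CPM with PBMCsec and 72.0, 277, 11.4 and 26.3 CPM with vehicle. Library 2 was the highest of each group, and the fold change was 0.55 ± 0.85. In PBMCsec library 2, 66 of 91 UMIs came from 1 cell. With vehicle, 1 cell held 14 of 18 UMIs in library 1, 14 of 32 in library 2 and 7 of 10 in library 4. Timp1 had 175, 31.0, 3.21 and 29.2 CPM with PBMCsec and 28.0, 43.3, 8.16 and 5.25 CPM with vehicle. PBMCsec library 1 stood apart, where 122 of 127 UMIs came from 1 of 76 cells and the level without that cell was 7.05 CPM. The fold change was 1.98 ± 0.96 (edgeR adjusted p = 0.9996) and 0.28 without PBMCsec library 1.

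**Figure D5:**
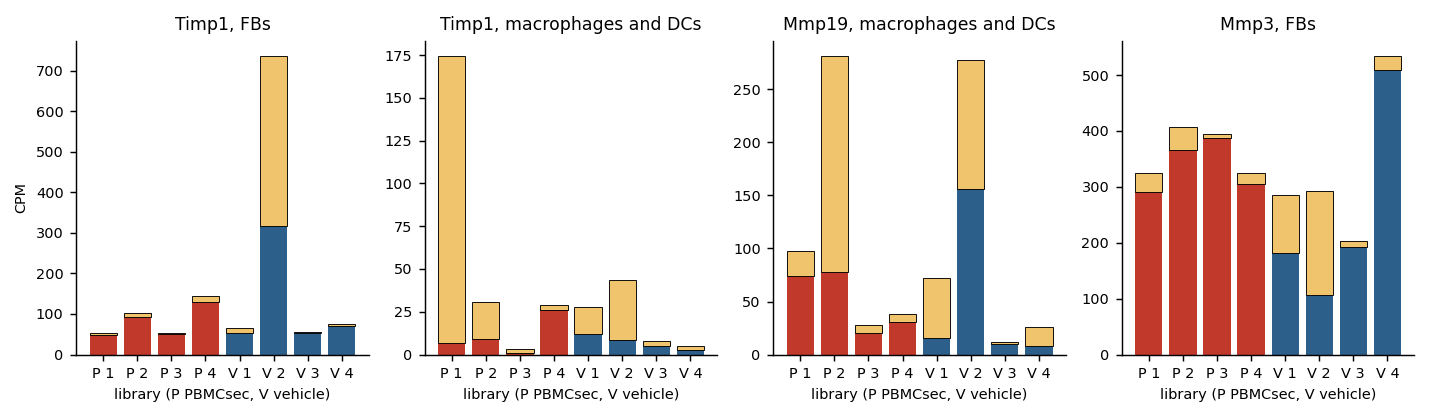
CPM by library for 4 pairs of gene and class, each bar split into the UMIs of the single cell with the most (yellow, top) and of all other cells (red PBMCsec, blue vehicle). The yellow part is most of the Timp1 bar of PBMCsec library 1 in macrophages and DCs (122 of 127 UMIs) and of vehicle library 2 in FBs (83 of 146 UMIs).

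In lymphoid cells, edgeR called 0 of 4747 genes (0%) and 179 (3.77%) had an unadjusted p under 0.05, while DESeq2 called 3 and had 108, and a fit with the library number as a block called 7. Groups without overlap were seen for 2.51% of all genes. Timp2 was the member that passed the filter. It had 54.8, 26.7, 42.9 and 38.8 CPM with PBMCsec and 30.1, 24.6, 81.9 and 56.0 CPM with vehicle, and the fold change was -0.21 ± 0.36 (edgeR adjusted p = 0.9998). The other 8 members had at most 30.03 CPM in any library of this class.

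Over all kept cells of a library, edgeR called 0 of 13182 genes (0%) and 335 (2.54%) had an unadjusted p under 0.05, while DESeq2 called 8 and had 384. All 9 members passed the filter, 8 with a fold change above 0 and Mmp9 below (-1.42 ± 0.74), with a median of 0.44 beside -0.02 over all genes. Mmp3 had 0.78 ± 0.36, Mmp23 0.55 ± 0.32, Timp2 0.50 ± 0.34 and Mmp2 0.44 ± 0.28, and none had an unadjusted p under 0.05. FBs made up 20.7 to 36.3% of the kept cells with PBMCsec and 12.98 to 23.9% with vehicle. In these sums more cells of a type and more RNA per cell cannot be told apart.

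No difference in treatment effect between classes passed the test. For 14 pairs of classes and members, exact permutation tests over 70 labellings gave adjusted p of 0.836 to 0.886. The smallest raw p these could give is 0.0286. After adjustment over 14 tests, a single difference could not pass at that p, however large. These tests could therefore not decide whether the effect of a member differs between classes. Simulated counts of the same libraries had 100 genes changed 2-fold and 100 changed 4-fold in each class. Of the 4-fold changes, edgeR called 93% in FBs, 87% in KCs, 90% in macrophages and DCs and 92% in lymphoid cells. For 2-fold changes these were 30%, 36%, 30% and 54%. So many changed genes ease the adjusted threshold, which is stricter where few genes change. These shares therefore do not give the chance of calling a change confined to a few members. The simulated counts took their spread from edgeR's trend over genes of like level, not from each gene. Members whose UMIs came largely from 1 cell of a library, such as Timp1, can spread more, so these shares need not hold for them.

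The ratio of all TIMP to all MMP UMIs of the members gives their balance in transcripts within a class, not in protein. In FBs it was 1.03 ± 0.19 with PBMCsec and 0.97 ± 0.11 with vehicle (SD, n = 4 each). In KCs it was 3.15 ± 0.97 and 3.27 ± 1.55, in lymphoid cells 2.70 ± 0.38 and 2.73 ± 1.53. The lymphoid ratios rest on only 4 to 21 MMP UMIs and 9 to 35 TIMP UMIs per library. The KC ratio of vehicle library 1 rests on 19 UMIs of each. Macrophages and DCs had 1.47 ± 0.75 with PBMCsec, from 0.522 to 2.31, and 0.734 ± 0.37 with vehicle, from 0.263 to 1.03, so these ranges overlapped. The 2.31 of PBMCsec library 1 includes 122 Timp1 UMIs of 1 cell among 385 TIMP UMIs, and the 0.522 of library 2 includes 66 Mmp19 UMIs of 1 cell among 113 MMP UMIs.

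A wider list of 29 MMPs, TIMPs, MMP inhibitors, activators and partners, of which 28 were in the files, sets the members among their pathway. None passed edgeR's test in any class, with 13 passing the filter in FBs (6 above 0, 7 below), 10 in KCs (8 and 2), 9 in macrophages and DCs (6 and 3), 3 in lymphoid cells (1 and 2) and 18 over all kept cells (12 and 6). Of other MMPs, Mmp8, the neutrophil collagenase, averaged 220 CPM ± 107 in neutrophils (n = 4), Mmp11 116 ± 53.8 in FBs, Mmp12, the macrophage elastase, 86.8 ± 49.2 in macrophages and DCs, and Mmp13 71.6 ± 152 in FBs. In vehicle library 1, 110 of the 112 Mmp13 UMIs of FBs came from 1 cell. The membrane-anchored MMP inhibitor Reck averaged 81.1 ± 13.9 in FBs.

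Partners were spread over classes, and each is given in the class with its highest mean. Cd63, a tetraspanin that binds Timp1, averaged 1131 CPM ± 270 in FBs, Lrp1, a receptor that clears MMPs and TIMPs, 633 ± 88.9 in FBs, and Cd44, a docking site of Mmp9, 1393 ± 664 in neutrophils. Furin, a convertase that activates Mmp14, averaged 483 ± 229 in lymphoid cells. Bsg, an inducer of MMPs, averaged 503 ± 187 in ECs, beside 467 ± 150 in FBs and 360 ± 65.2 in KCs. Plaur, the urokinase receptor, averaged 926 ± 967 and Lcn2, which binds Mmp9, 547 ± 534 in neutrophils. Plau averaged 278 ± 124 and Thbs2 453 ± 79.0 in FBs, and Thbs1 601 ± 393 in KCs.

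Over all kept cells, the groups did not overlap for Cd63 (523 to 687 CPM with PBMCsec, 307 to 465 with vehicle) and Lrp1 (177 to 259 and 108 to 170 CPM), as for 1.84% of all genes tested. Their fold changes were 0.66 ± 0.20 and 0.59 ± 0.19 (edgeR adjusted p = 0.99999 for each), and the FB shares given above apply to them. Within classes, Cd63 had 0.41 ± 0.22 in FBs, 0.39 ± 0.23 in KCs and 0.44 ± 0.35 in macrophages and DCs, Lrp1 had 0.10 ± 0.21 in FBs, and none of these passed the test. Thbs1 in macrophages and DCs had a fold change of 2.24 ± 0.70 (edgeR adjusted p = 0.802). It ranged from 0.79 to 4.17 over 17 alternatives, and 2 of these called it. They were the fit with no filter on low counts (edgeR adjusted p = 1.15e-06) and libraries 1 and 2 alone. These 2 fits called 110 and 12 genes in this class, where the main fit called 0. Lcn2 in KCs had 6.62 ± 2.10 (edgeR adjusted p = 0.99995), from 12.6, 1128, 0.364 and 8.72 CPM with PBMCsec and 0, 0, 5.13 and 1.82 CPM with vehicle. PBMCsec library 2 held 646 of these UMIs, 265 of them in 1 cell.

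Barcodes that failed the limits on quality were read as a check on what was left out. In them Mmp2 had 205 to 382 CPM with PBMCsec and 130 to 524 with vehicle, Timp3 348 to 447 and 360 to 467, and Mmp9 1.46 to 7.36 and 2.36 to 6.11. The groups overlapped for these members in the discarded barcodes as they did in the kept cells.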

How the data were processed

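Single-cell libraries of 4 PBMCsec and 4 vehicle samples were read as the authors deposited them: filtered matrices of raw UMI counts per gene and barcode, not normalized, made with Cell Ranger (3.0.2 in the submitters' processing notes) on mm10. Following the study's methods, barcodes were kept that had 500 to 4000 detected genes, no more than 20000 UMIs and a mitochondrial share of up to 5%, and Gm42418, Gm17056 and Gm26917 were removed. Col1a1, Col1a2 and Col3a1 were left out of the tests of classes other than FBs. Krt1, Krt5, Krt10, Krt14 and Krtdap were left out for classes other than KCs. The tests over all kept cells included these collagen and keratin genes.

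The libraries were integrated and clustered with Seurat 5.3.0 (2000 variable features without the members and the wider list, 30 dimensions, resolution 1). Clusters were named from marker lists, by a rule on their number and fold set after the clusters were seen. The 2 unnamed clusters held 5.37% of cells. Scrublet marked 15 cells (0.244%), which is too few to be a working call, so no doublets were removed and the 5% of cells with the highest scores were left out as an alternative. Classes with at least 10 cells in a library were given values, as CPM.

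For each class, the UMIs of a library's cells were added up, and edgeR 4.0.16 compared the sums (quasi-likelihood test after filterByExpr and TMM scaling, no block), with Benjamini-Hochberg adjustment over all genes tested and a threshold of 0.05. This test returns no SE. The SE given with a fold change is its absolute value divided by the square root of the test's F statistic. DESeq2 1.42.0 was an alternative, and its genes without an adjusted p were left out of its calls. Neighbouring classes were compared with exact sign-flip tests. The statistical steps were tested on simulated data. Intervals and floors of 3 UMIs cover counting error only, and free RNA can add UMIs to cells that lack a gene.

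The members, marker lists and wider list were chosen with earlier results of these data known. The genes named are the 9 members, those of the wider list with a mean of at least 50 CPM in any class, and the 3 genes most like each member over clusters. Cd63, Lrp1, Lcn2 and Thbs1 are given fold changes chosen after their values were seen. Deviations from the group means of libraries with the same number correlated at 0.138 to 0.407 in lymphoid cells and at 0.288 to 0.571 over all kept cells, with every pair over 0.1. In FBs (-0.009 to 0.243), KCs (-0.007 to 0.478) and macrophages and DCs (0.0849 to 0.315) not every pair did. The pairing comes from these correlations and not from the labels.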

Additional observations from a re-analysis of the deposited data

Results flagged for a closer look

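Each member's level was examined in the groups of 4 libraries, and in 9 of 56 groups the highest or lowest library was separated from the rest by more than Dixon's critical value for 4 samples. Chance flags about 5% of independent groups of normally distributed values. The groups over all kept cells contain the cells of the classes, so the 56 groups are not independent. No excess of flags is read from the 9. In FBs, Mmp14 of PBMCsec library 3 was 1250.0 CPM, where the other PBMCsec libraries had 535 to 599. Mmp19 of PBMCsec library 2 was 182 CPM, beside 48.3 to 66.0. Timp1 of vehicle library 2 was 737 CPM, beside 55.8 to 74.3, and Timp3 of the same library was low, 459 CPM beside 729 to 777. Both values of vehicle library 2 rest on 27 FBs.

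In KCs, Mmp2 of vehicle library 3 was 61.4 CPM, beside 39.3 to 40.7 in the other vehicle libraries. In macrophages and DCs, Timp1 of PBMCsec library 1 was 175 CPM, beside 3.21 to 31.0. Over all kept cells, Mmp14 of PBMCsec library 3 was 525 CPM (173 to 227 in the others of its group), Timp1 of vehicle library 2 was 88.9 CPM (18.3 to 21.7) and Timp2 of vehicle library 2 was low, 256 CPM (612 to 671).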

How the results depend on the processing

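Of the gene counts, 68 alternatives gave a count within 1.5 times the main one and 16 gave more than its 0. Where genes were called, DESeq2 called 1 in KCs, 7 in macrophages and DCs, 3 in lymphoid cells and 8 over all kept cells. Dropping the filter on low counts called 110 in macrophages and DCs and 47 in lymphoid cells, libraries 1 and 2 alone 12 and 10, and libraries 3 and 4 alone 1 and 4. The top Scrublet scores removed gave 2 in macrophages and DCs, as did placing cells one by one by markers, and leaving out 1 library in turn gave 0 to 1 there (1 without vehicle library 2) and 0 to 2 in lymphoid cells (2 without PBMCsec library 4). With the replicate block, 4 genes were called in macrophages and DCs and 7 in lymphoid cells. No member was called under the block (lowest adjusted p 0.519), and it changed no other call. In macrophages and DCs every library correlated best with its own number, a hint from the data and not the design. Of the alternatives run, the unfiltered fit alone called a member, Mmp9 (-1.68, edgeR adjusted p 4.4e-05) and Timp1 (2.03, 0.00117) in macrophages and DCs. The causes of these changes were not tested, and fewer libraries or more genes enter some fits by construction.

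Of the members' fold changes, 411 kept their direction and 53 changed sign, and 154 differences between classes kept it and 13 did not, and no member that changed sign had passed the test. Of the levels, 18 of 540 moved by more than their SD. Leaving out 1 library cannot move a mean by more than its SD, so those alternatives could not show a move. All moves came from removing the top Scrublet scores, placing cells by markers, with or without the 10% mitochondrial limit, or averaging over cells. With cells placed by markers, Timp3 was 60.9 CPM in macrophages and DCs and 27.2 in lymphoid cells, beside 6.09 and 4.22. Mmp2 in macrophages and DCs was 17.3 CPM, beside 5.003. With libraries 3 and 4 alone, the sign turned for Mmp2 (-0.044) and Timp3 (-0.011) in KCs, Mmp14 (0.072) and Timp1 (0.67) in FBs, Mmp14 (-0.012) in macrophages and DCs and Mmp9 over all kept cells (0.40). With libraries 1 and 2 alone it turned for Mmp23 in FBs (-0.048), Timp1 over all kept cells (-0.46), and Timp2 in KCs (0.60) and lymphoid cells (0.66). With the 10% mitochondrial limit and cells placed by marker genes together these were Mmp14 in KCs (-0.0091), Mmp23 (-0.062) and Timp3 (-0.093) in FBs and Timp2 in lymphoid cells (0.080), and the difference of Timp2 between FBs and lymphoid cells (-0.10) and between KCs and lymphoid cells (-0.044). DESeq2 gave -0.0019 for Mmp23 in FBs and 0.019 for Timp2 in KCs, the replicate block 0.055 for Timp2 in KCs, and placement by markers -0.038 for Mmp23 in FBs. With the top Scrublet scores removed, Mmp19 in macrophages and DCs was -0.21, Timp2 in lymphoid cells 0.14 and the Timp2 difference between FBs and lymphoid cells -0.040.

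Leaving out 1 library in turn, the fold change in FBs ran from -0.18 to 0.010 for Mmp2, -0.47 to 0.029 for Mmp14, -0.34 to 0.51 for Mmp19, -0.14 to 0.14 for Mmp23, -1.63 to 0.53 for Timp1, -0.094 to 0.27 for Timp2 and -0.028 to 0.18 for Timp3. In KCs it ran from -0.051 to 0.16 for Mmp14, -0.27 to 0.18 for Timp2 and -0.16 to 0.49 for Timp3, in macrophages and DCs from -0.39 to 1.73 for Mmp19, and in lymphoid cells from -0.41 to 0.18 for Timp2. Over all kept cells it ran from -0.092 to 0.56 for Mmp14, -0.20 to 0.96 for Timp1 and -0.044 to 0.35 for Timp3. Without a change of sign it ran in KCs from 0.25 to 0.62 for Mmp2 and 0.30 to 1.17 for Mmp3, in macrophages and DCs from 0.084 to 0.43 for Mmp14 and 0.36 to 0.81 for Timp2, and over all kept cells from 0.24 to 0.60 for Mmp2, 0.57 to 1.24 for Mmp3, -1.80 to -0.90 for Mmp9, 0.31 to 0.69 for Mmp23 and 0.24 to 0.68 for Timp2. The difference between FBs and KCs ran from -0.71 to 0.45 for Timp2 and -0.66 to 0.31 for Timp3, that of Timp2 between FBs and lymphoid cells from -0.025 to 0.43 and between KCs and lymphoid cells from -0.023 to 0.89, and between KCs and macrophages and DCs from -0.43 to 0.061 for Mmp14 and -0.87 to 0.18 for Timp2. Vehicle libraries 1 and 2, with 31 and 27 FBs, and classes with few UMIs of Timp1, Mmp9 and Mmp19 limit what could be seen.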
